A study of Mus musculus and Acomys cahirinus with 84 samples.

Results

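Chemokines expressed by cultured skin fibroblasts are described here through 10 genes: Ccl2, Ccl5, Ccl7, Ccl8, Ccl20, Cxcl1, Cxcl5, Cxcl12, Cxcl14 and Cx3cl1. They were chosen by symbol, and each symbol was found in 1 row of the mouse table of 56980 gene identifiers and in 1 row of the *Acomys cahirinus* table of 19818 gene names. The cells were primary skin fibroblasts of mice labelled C56BL6, of wild mice and of the African spiny mouse *A. cahirinus*, given 0, 10 or 20 Gy of gamma radiation and collected 24 h or 12 d later. Cells at 0 Gy carried the label untreated, and at 12 d a further untreated group had been passaged. Each of the 21 groups held 4 libraries, 84 in all, and within a population a replicate number stands for one animal code in the library names. Neither ages nor the passage at which cells were used are given in the labels. The labelled batch is the same for all 24 h libraries and another for all 12 d libraries; the effects of batch and of time cannot be told apart, and the times were not tested against each other. The study is one of carcinogenesis in spiny mice, and the design asks how fibroblasts of that species and of mice respond to radiation.

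Chemokines are small secreted proteins that draw leukocytes along a concentration gradient by way of G protein-coupled receptors on the leukocyte. Their families are named by the spacing of the first cysteines of the mature protein. CC ligands such as Ccl2 and Ccl7 act on monocytes through Ccr2, and CXC ligands with an ELR motif such as Cxcl1 and Cxcl5 act on neutrophils through Cxcr2. Cxcl12 holds haematopoietic and immune cells in place through Cxcr4 and is made by fibroblasts at rest, whereas inflammatory ligands are held low and are raised by cytokines and by damage. Irradiated fibroblasts that stop dividing are known to secrete inflammatory chemokines as part of the senescence-associated secretory phenotype.

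The cysteine codons that give each family its name are shown because they group the members. Each line gives the mouse coding sequence of the GENCODE canonical transcript on GRCm39, read along the gene's strand, with the cysteine codons in capitals and 2 codons on each side. In the CC ligands the 2 cysteines are adjacent, in the CXC ligands 1 residue lies between them, and in Cx3cl1 there are 3.
Ccl2, chr11:81927326-81927343: ctcaccTGCTGCtactca
Ccl7, chr11:81937358-81937375: tccacaTGCTGCtatgtc
Ccl8, chr11:82006876-82006893: gtcaccTGCTGCtttcat
Ccl5, chr11:83420062-83420079: actcccTGCTGCtttgcc
Ccl20, chr1:83095528-83095545: tacgacTGTTGCctctcg
Cxcl1, chr5:91039349-91039369: ctgcgcTGTcagTGCctgcag
Cxcl5, chr5:90907580-90907600: ctgcgtTGTgttTGCttaacc
Cxcl12, chr6:117148463-117148483: taccgaTGCcccTGCcggttc
Cxcl14, chr13:56443722-56443742: tccaagTGTaagTGTtcccgg
Cx3cl1, chr8:95504673-95504699: acgaaaTGCgaaatcatgTGCgacaag
Ccl5 and Cxcl14 lie on the minus strand and the other members on the plus strand. Ccl2, Ccl7 and Ccl8 lie in one cluster on chromosome 11, with 8.25 kb between Ccl2 and Ccl7 and 67.7 kb between Ccl7 and Ccl8, a stretch that also holds Ccl11 and Ccl12. Cxcl5 and Cxcl1 share chromosome 5, 130 kb apart.

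Promoters are shown for 2 members whose transcripts were higher after irradiation in at least 1 population and for Cxcl12, which was lower in C56BL6 mice. The sequences are of the mouse. Cxcl1 was called higher in *A. cahirinus*, while its mean in C56BL6 mice was lower after either dose at both times. Sequences are from RefSeq on GRCm38.p6 and run from 250 bases before to 50 bases after the start. The table holds 6 of the 10 members and was matched by symbol. Capitals mark matches of GGGNNTTTCC, the core of an NF-kB site, searched on both strands; N is any base.
Cxcl1, chr5:90890995-90891294, plus strand: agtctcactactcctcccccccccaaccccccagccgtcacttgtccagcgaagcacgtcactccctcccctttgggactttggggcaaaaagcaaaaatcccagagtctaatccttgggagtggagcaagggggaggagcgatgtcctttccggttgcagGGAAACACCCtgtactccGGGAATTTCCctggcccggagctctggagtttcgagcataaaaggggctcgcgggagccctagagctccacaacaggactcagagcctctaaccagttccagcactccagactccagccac
Ccl20, chr1:83116516-83116815, plus strand: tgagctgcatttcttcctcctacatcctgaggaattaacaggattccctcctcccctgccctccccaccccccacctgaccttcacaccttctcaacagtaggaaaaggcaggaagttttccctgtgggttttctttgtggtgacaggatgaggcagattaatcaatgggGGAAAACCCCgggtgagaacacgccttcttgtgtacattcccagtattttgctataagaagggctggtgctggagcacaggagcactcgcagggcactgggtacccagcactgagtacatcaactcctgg
Cxcl12, chr6:117168285-117168584, plus strand: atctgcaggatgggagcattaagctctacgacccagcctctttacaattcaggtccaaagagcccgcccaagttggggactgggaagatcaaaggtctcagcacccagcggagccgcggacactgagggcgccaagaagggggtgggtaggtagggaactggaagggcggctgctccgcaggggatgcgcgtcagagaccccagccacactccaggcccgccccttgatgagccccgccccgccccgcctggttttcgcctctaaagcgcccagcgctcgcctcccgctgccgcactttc
The Cxcl1 window holds 2 matches, which begin 89 and 71 bases before the start and overlap no base of each other. The Ccl20 window holds 1 match, 80 bases before the start. None was found in the windows of Cxcl12, Cxcl14, Cx3cl1 and Ccl8. Of 32851 promoter windows of this length, 535 (1.63%) hold the motif. A match is a description of the letters and shows no binding.

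Total counts ranged from 26.65 to 39.82 M per library (C56BL6 mice), from 17.42 to 35.98 M (wild mice) and from 25.55 to 52.86 M (*A. cahirinus*). Levels are given as CPM, counts per 1 M counts, with totals scaled by TMM within a population. Before that scaling 3 counts are worth 0.0568 to 0.172 per 1 M counts, a limit that covers counting error only. The fibroblast genes Col1a1, Col1a2 and Vim were at 1307 CPM or more in every library, while Dcn, Lum and Fap, which many fibroblasts express, had medians of 19.6, 0.493 and 0.380 CPM in C56BL6 mice. Of 8 leukocyte genes Adgre1 and Cd3e stayed at or below 0.208 CPM and Ptprc reached at most 1.18 CPM, while Csf1r reached 45.08 CPM, Lyz2 28.9, Cd68 6.70, Itgam 5.65 and Cd74 2.61 CPM. Their summed level at 12 d had medians of 26 CPM (12.9 to 35.8) at 0 Gy and 33.7 CPM (27.6 to 39.3) at 20 Gy in C56BL6 mice, 29.1 (15.9 to 43.7) and 35.8 CPM (24.5 to 43.5) in wild mice, and 3.20 (2.46 to 4.11) and 7.75 CPM (3.71 to 11.3) in *A. cahirinus*, there without Lyz2, which was not matched. Its part in the chemokine changes at 12 d was not tested. The keratinocyte genes Krt5 and Krt14 lay between 61.95 and 435 CPM in every C56BL6 library numbered 1 and at or below 1.23 CPM in every other C56BL6 library.

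The wild libraries numbered 1 went against their number. Genes were counted that lay at 2 CPM or more in every library of one number and time and at 0.1 CPM or less in every library of another. Between the 24 h and 12 d libraries of the same number, 0 genes met this in every animal of the 3 populations except wild number 1, with 41 genes. The wild 12 d libraries numbered 1 differed by 0 such genes from those numbered 4 at 12 d and at 24 h, whereas the other pairs of different wild numbers differed by 11 to 99. Separate numbers also gave 0 or 1 between C56BL6 replicates 3 and 4, and 0 between most pairs of *A. cahirinus*, so 0 does not by itself mark 1 animal. Cxcl5 is one of the members it touches: in the wild libraries numbered 1 it lay at or below 0.0989 CPM in the 3 libraries at 24 h and at 76.6 to 97.6 CPM in the 4 at 12 d. Wild results at 12 d are therefore also given without replicate 1, as values for the members at 20 Gy and for the calls with the block, or as counts of members.

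Levels of different members were compared per length, as TPM, a share of transcripts scaled to 1 M (mean ± SD, n = 4), in untreated cells at 24 h. In C56BL6 mice Ccl7 was highest at 209 ± 58.4 TPM, followed by Cxcl12 at 135 ± 34.2 and Ccl2 at 113 ± 36.3 TPM, and the last pair differed by less than their SDs. Cxcl14, Cx3cl1, Cxcl5 and Cxcl1 came next with means of 56.3, 31.5, 29.6 and 25.6 TPM, whose spreads overlapped. Ccl5, Ccl8 and Ccl20 were below 1 TPM. In wild mice Ccl7 at 456 ± 578 TPM, Cxcl14 at 256 ± 201, Ccl2 at 212 ± 273 and Cxcl12 at 206 ± 163 TPM could not be ordered beyond their spread. *A. cahirinus* fibroblasts had another order. There Ccl2 was highest at 131 ± 75.9 TPM, then Cxcl12 at 33.9 ± 24.4, Ccl7 at 17 ± 9.21 and Cxcl14 at 5.71 ± 2.29 TPM, where Cxcl12 and Ccl7 differed by less than the SD of Cxcl12. Cxcl1, Cxcl5 and Ccl20 averaged 1.06 to 1.91 TPM in that species, Ccl5 and Cx3cl1 were below 0.21 TPM, and Ccl8 had 0 counts. The tables were counted against different annotations, so a level in a mouse was not tested against a level in *A. cahirinus*. In untreated cells at 12 d, Cxcl12 led in C56BL6 mice (1420 ± 673 TPM), Cxcl14 in wild mice (1080 ± 1020 TPM) and Ccl2 in *A. cahirinus* (68.1 ± 31.3 TPM). In wild mice and *A. cahirinus* the lead was smaller than the SD of the leading member, over Cxcl12 at 517 ± 235 and Ccl7 at 42.2 ± 4.11 TPM.

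Between untreated wild and C56BL6 mice, 0 of 7 tested members passed the threshold at 24 h and 0 of 8 at 12 d, against 5.7% and 2.93% of all genes tested. The threshold throughout is a Benjamini-Hochberg adjusted p of 0.05 over all genes in the quasi-likelihood test of edgeR. At 24 h 0 of the members had an unadjusted p under 0.05, at 12 d 4 had, and DESeq2 called 0 and 1.

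At 12 d Ccl2, Ccl7 and Ccl20 rose at 20 Gy in C56BL6 mice and in *A. cahirinus*, Cxcl12 fell in C56BL6 mice, and Cxcl1 rose in *A. cahirinus*. In C56BL6 mice 4 of 9 tested members passed the threshold (26.5% of all genes) and in *A. cahirinus* 4 of 7 (31.8%). Of these, Ccl20 in both populations and Cxcl1 in *A. cahirinus* passed the expression filter through the 20 Gy libraries. In wild mice 0 of 9 did (0.0694%), with 2 at an unadjusted p under 0.05 and 1 called by DESeq2. Libraries of one animal were then compared with each other, by a fit with the replicate number as a block. With it the counts were 6 of 9 (47.5% of all genes), 4 of 7 (49.2%) and 3 of 9 (15.4%), in the same order of populations. The members tested had a median log2 fold change of -0.46 (C56BL6 mice), 0.61 (wild mice) and 1.53 (*A. cahirinus*), beside -0.01, -0.01 and 0.00 for all genes. These medians are not of the same members, since Ccl5 was tested in no population and Ccl8 and Cxcl5 not in *A. cahirinus*. Because these are bulk RNA samples, fewer cells of a kind and less RNA per cell cannot be told apart.

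**Figure D1:**
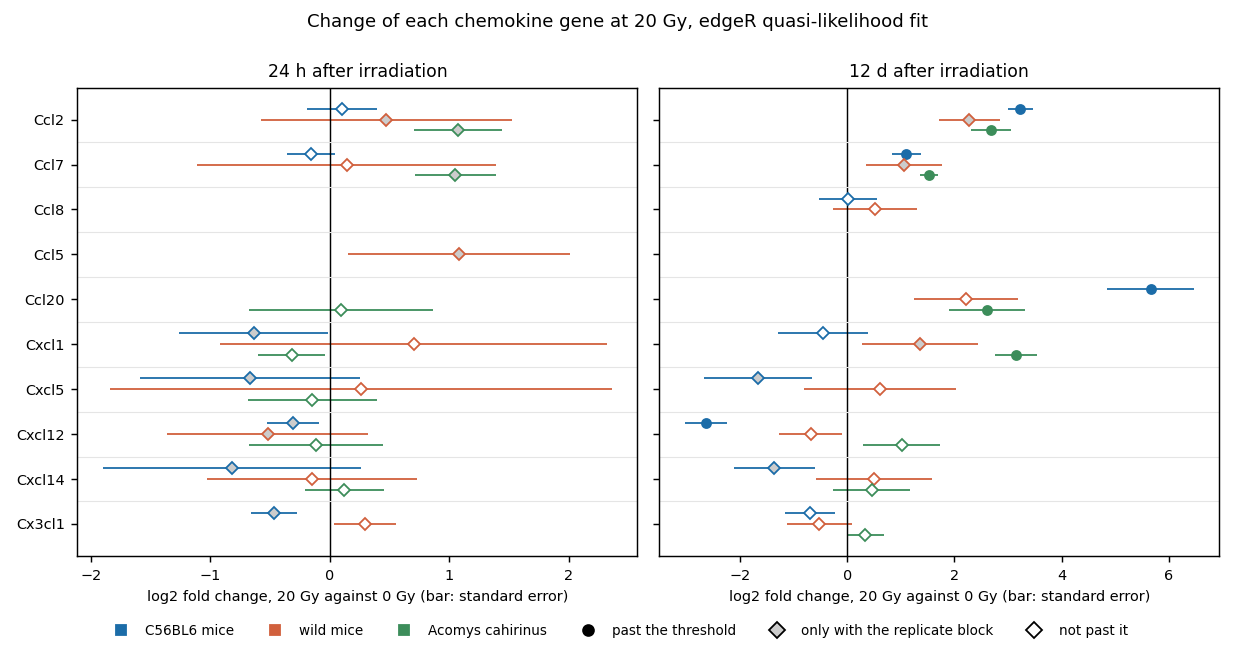
Log2 fold change at 20 Gy against 0 Gy for each member tested, with 4 libraries a group; bars are standard errors, round symbols passed the adjusted p of 0.05, grey diamonds passed it only with the replicate block, and open diamonds in neither fit. At 12 d Ccl2 lies at 3.23, 2.28 and 2.68 in the 3 populations from top to bottom, the Ccl20 value in C56BL6 mice rests on 3 untreated counts, and Cxcl12 lies at -2.64 in C56BL6 mice and 1.02 in *A. cahirinus*.

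Ccl2, the main attractant of monocytes, rose at 12 d in C56BL6 mice and *A. cahirinus* and, with the block only, in wild mice. In C56BL6 mice it lay at 15.1, 16.4, 15.7 and 14.7 CPM in replicates 1 to 4 at 0 Gy, at 82.6, 131, 171 and 187 CPM at 10 Gy and at 79.8, 150.2, 177 and 152 CPM at 20 Gy. The untreated libraries lay within 2 CPM of each other, and every irradiated library was above all of them. The log2 fold change was 3.23 ± 0.23 (SE) at 20 Gy (edgeR adjusted p = 5.2e-04) and 3.26 ± 0.24 at 10 Gy (adjusted p = 7.8e-04).

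In *A. cahirinus* at 12 d Ccl2 lay at 20.6, 36.1, 14.6 and 15.1 CPM at 0 Gy, at 93.2, 178, 53.6 and 61.96 CPM at 10 Gy and at 125, 222, 91.6 and 114 CPM at 20 Gy. Replicate 2 was highest in each of these groups, and irradiated and untreated libraries did not overlap. On the fitted scale the log2 fold change at 20 Gy was 2.68 ± 0.37 (edgeR adjusted p = 0.0014). At 10 Gy it was 2.16 ± 0.47, with an edgeR adjusted p of 0.051 and of 1.1e-04 with the replicate block.

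In wild mice Ccl2 at 12 d lay at 46.6, 9.77, 30.1 and 33.4 CPM at 0 Gy, at 230.5, 63.5, 90.3 and 217 CPM at 10 Gy and at 227, 68.8, 76.8 and 193 CPM at 20 Gy. It was higher at 20 Gy under each of the 4 numbers, and the groups did not overlap. Its log2 fold change of 2.28 ± 0.57 had an edgeR adjusted p of 0.15, and of 0.0039 with the replicate block. Without replicate 1, the blocked value was 2.26 (adjusted p = 0.031).

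At 24 h the change of Ccl2 at 20 Gy was larger in *A. cahirinus* than in C56BL6 mice when the block was used. In *A. cahirinus* it lay at 34.9, 77.3, 24.4 and 27.1 CPM at 0 Gy, 76.4, 122, 58.98 and 70.3 CPM at 10 Gy and 82.1, 119, 64.2 and 75.7 CPM at 20 Gy, higher in 4 of 4 animals at each dose, where only replicate 2 at 0 Gy made the groups overlap. In C56BL6 mice it lay at 22.9, 30.4, 46.6 and 41.2 CPM at 0 Gy and 21.9, 33.8, 47.3 and 47.5 CPM at 20 Gy. The log2 fold change at 20 Gy was 1.07 ± 0.37 in *A. cahirinus*, with an edgeR adjusted p of 0.18 and of 1.0e-04 with the replicate block. In C56BL6 mice it was 0.10 ± 0.29 (adjusted p = 0.96, 0.36 with the block). The difference between these changes was 0.97 ± 0.51 (edgeR adjusted p = 0.54, and 9.0e-05 with the replicate block). In wild mice the blocked log2 fold change was 0.59 ± 0.09 (edgeR adjusted p = 0.0028, 1 without the block), and its difference from the *A. cahirinus* change was 0.60 ± 0.17 (adjusted p = 0.049 with the block, 0.15 with it and without replicate 1, 1 without the block). The wild libraries of replicate 4 lay at 185 to 232 CPM against 13.6 to 63.5 CPM in the others.

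**Figure D2:**
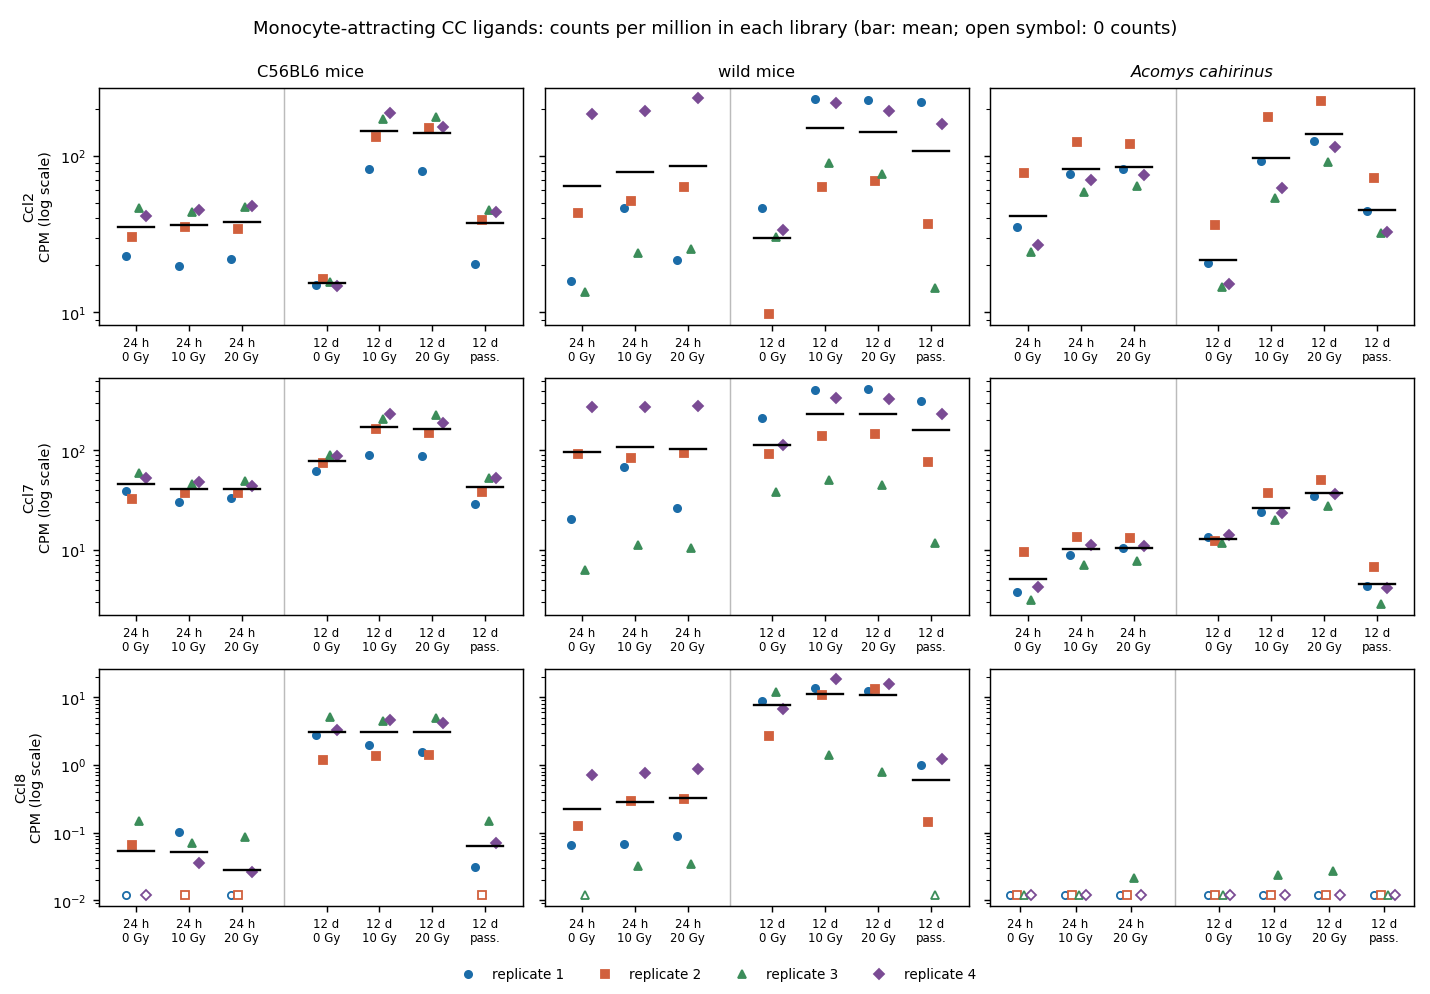
CPM on a log axis for Ccl2, Ccl7 and Ccl8 in each library, by population, time and dose; bars are group means, open symbols at the bottom are libraries with 0 counts, and symbol shapes are replicate numbers, which name different animals in different populations. Ccl2 at 12 d is above the untreated libraries in every irradiated library of the 3 populations, and Ccl8 is near 0 in passaged C56BL6 cells and in all *A. cahirinus* libraries.

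Ccl7, a second monocyte attractant encoded beside Ccl2, rose at 12 d in C56BL6 mice and *A. cahirinus* and, with the block, in wild mice. In C56BL6 mice at 12 d it lay at 62.1, 74.7, 90.5 and 87.2 CPM at 0 Gy and 88.3, 149, 225 and 189 CPM at 20 Gy, higher in 4 of 4 animals with overlapping groups, since replicate 1 at 20 Gy was below the highest untreated library. On the fitted scale the log2 fold change was 1.10 ± 0.27 (edgeR adjusted p = 0.02); without replicate 2, 3 or 4 the adjusted p was 0.099, 0.09 or 0.097. In *A. cahirinus* it lay at 13.5, 12.3, 11.7 and 14.2 CPM at 0 Gy, 24.01, 36.9, 20.1 and 23.6 CPM at 10 Gy and 35.2, 50.8, 27.4 and 36.5 CPM at 20 Gy, a series without overlap between 0 Gy and either dose. Its log2 fold change was 1.53 ± 0.17 at 20 Gy (edgeR adjusted p = 6.2e-04) and 1.02 ± 0.20 at 10 Gy (adjusted p = 0.041, and 0.32, 0.2 and 0.17 without replicate 1, 3 or 4). Wild mice had 213, 91.8, 38.2 and 114 CPM at 0 Gy and 415, 145, 44.6 and 328 CPM at 20 Gy, with an edgeR adjusted p of 0.57, of 0.031 with the replicate block and of 0.14 with the block and without replicate 1.

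Ccl7 at 24 h in *A. cahirinus* lay at 3.80, 9.48, 3.17 and 4.20 CPM at 0 Gy and 10.4, 13.2, 7.75 and 10.96 CPM at 20 Gy, a log2 fold change of 1.05 ± 0.34 with an edgeR adjusted p of 0.16 and of 7.1e-04 with the replicate block. In C56BL6 mice the log2 fold change was -0.16 ± 0.20 (adjusted p = 0.88, 0.2 with the block). The difference was 1.21 ± 0.42 (edgeR adjusted p = 0.22, 1.2e-04 with the block). Leaving out replicate 2, whose untreated *A. cahirinus* library was high, brought the unblocked adjusted p for the change in that species to 0.0071.

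Ccl8, encoded in the same chromosome 11 cluster, was lower in passaged than in untreated C56BL6 cells at 12 d and passed at neither dose there. At 12 d it lay at 2.79, 1.17, 5.08 and 3.30 CPM at 0 Gy and 1.58, 1.40, 4.97 and 4.16 CPM at 20 Gy, and at 0.0308, 0, 0.151 and 0.0704 CPM in passaged cells. At 24 h every C56BL6 library was at or below 0.151 CPM. The log2 fold change was 0.02 ± 0.54 for 20 Gy against 0 Gy (edgeR adjusted p = 0.98), -5.60 ± 0.76 for passaged against 0 Gy (adjusted p = 8.5e-04) and 5.61 ± 0.77 for 20 Gy against passaged (adjusted p = 8.7e-04). The passaged libraries held 0 to 4 counts, so the size of the last 2 changes rests on few counts. In both, Ccl8 passed the expression filter through the group where it was high. Wild mice had 8.95, 2.66, 12.1 and 6.75 CPM at 0 Gy, 12.4, 13.4, 0.784 and 15.9 CPM at 20 Gy and 1.01, 0.145, 0 and 1.24 CPM when passaged, and at 20 Gy replicate 3 was lower and the others were higher; the blocked log2 fold change at 20 Gy was 0.41 ± 0.89, and 0.35 (adjusted p = 0.89) without replicate 1. In *A. cahirinus* 25 of 28 libraries had 0 counts and none had more than 1, so Ccl8 was not tested there.

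Ccl20, the ligand of Ccr6 on T cells and dendritic cells, was at or below 0.0974 CPM in untreated C56BL6 cells and low even where it rose. Untreated cells reached 1.52 CPM in *A. cahirinus* and 0.991 CPM in wild mice, both at 24 h. In C56BL6 mice at 12 d it lay at 0.0353, 0, 0 and 0.0653 CPM at 0 Gy, 0.346, 2.18, 1.29 and 1.94 CPM at 10 Gy and 0.423, 1.67, 1.78 and 1.88 CPM at 20 Gy. In counts this was 3 over the untreated group and 218 over the 20 Gy group, a ratio of 63.8 per total count (95% exact binomial interval 21.5 to 312, for counting error only and not for the spread between animals). The edgeR test gave an adjusted p of 0.0028 at 20 Gy and 0.005 at 10 Gy, the latter 0.058 without replicate 3. At both doses Ccl20 passed the expression filter through the irradiated libraries, since untreated ones held 0 to 2 counts. In *A. cahirinus* Ccl20 lay at 0.439, 0.356, 0.0687 and 0.0863 CPM at 0 Gy and 0.876, 2.92, 1.55 and 0.503 CPM at 20 Gy, a log2 fold change of 2.60 ± 0.71 (edgeR adjusted p = 0.025). Without replicate 1 the adjusted p was 0.066, and without replicate 3 it was 0.13. Here too Ccl20 passed the filter through the 20 Gy libraries, since untreated ones held 2 to 13 counts. In wild mice it lay at 0.178, 0.305, 0.432 and 0 CPM at 0 Gy and 0.871, 0.390, 2.53 and 0.437 CPM at 20 Gy, higher in 4 of 4 with replicate 3 far above the others (edgeR adjusted p = 0.36, 0.053 with the block, 0.19 with it and without replicate 1).

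Ccl5, a T cell and monocyte attractant that interferon responses raise, was highest on average at 10 Gy in C56BL6 mice. In C56BL6 mice at 24 h it lay at 0.107, 0.162, 0.113 and 0.224 CPM at 0 Gy, 0.805, 0.877, 1.32 and 1.58 CPM at 10 Gy and 0.282, 0.506, 0.523 and 0.619 CPM at 20 Gy. The 3 groups did not overlap and the 10 Gy libraries were highest; 20 Gy was not tested against 10 Gy at this time. On the fitted scale the log2 fold change at 10 Gy was 2.88 ± 0.36, with an edgeR adjusted p of 0.053 and of 3.4e-04 with the replicate block. At 12 d it lay at 0.0353, 0.0730, 0.131 and 0.0980 CPM at 0 Gy, 1.35, 0.546, 0.675 and 0.377 CPM at 10 Gy and 0.592, 0.291, 0.444 and 0.248 CPM at 20 Gy, a log2 fold change at 10 Gy of 3.10 ± 0.54 (edgeR adjusted p = 0.0073, 0.064 without replicate 3). At 20 Gy the gene did not pass the expression filter at either time. Without that filter its log2 fold change was 1.64 at 24 h (edgeR adjusted p = 0.35) and 2.18 at 12 d (edgeR adjusted p = 0.025). At 10 Gy it passed the filter through the irradiated libraries, since untreated ones held 3 to 7 counts at 24 h and 1 to 4 at 12 d. Between 20 and 10 Gy at 12 d it passed the threshold in neither fit. Wild mice at 24 h had 1.35, 0.155, 0.736 and 0.215 CPM at 0 Gy and 2.83, 0.197, 1.60 and 0.489 CPM at 20 Gy (edgeR adjusted p = 1, 0.037 with the block). In *A. cahirinus* Ccl5 never exceeded 6 counts.

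**Figure D3:**
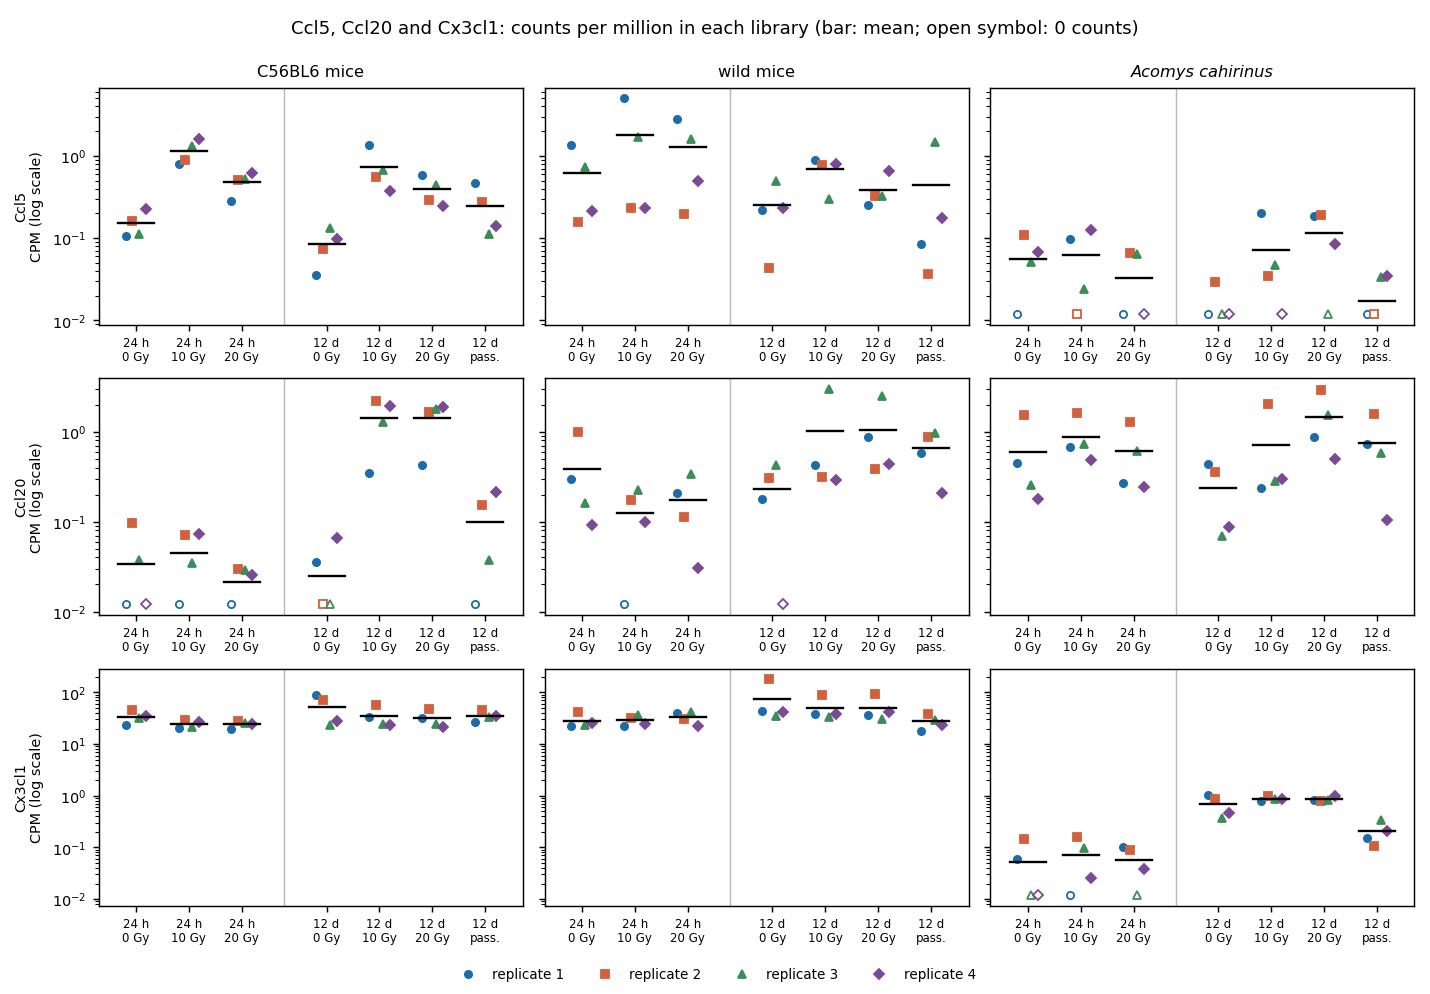
CPM on a log axis for Ccl5, Ccl20 and Cx3cl1 in each library, laid out by population, time and dose; open symbols at the bottom are libraries with 0 counts, bars are group means and shapes are replicate numbers. Ccl20 in C56BL6 mice moves from at most 0.0653 CPM at 0 Gy to between 0.346 and 2.18 CPM in the irradiated 12 d libraries, and Cx3cl1 stays at or below 1.01 CPM in *A. cahirinus*.

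Cxcl1 and Cxcl5 attract neutrophils, and Cxcl1 rose at 20 Gy in *A. cahirinus* at 12 d. In *A. cahirinus* at 12 d Cxcl1 lay at 0.135, 0.178, 0.172 and 0.115 CPM at 0 Gy, 0.646, 0.763, 0.211 and 0.537 CPM at 10 Gy and 0.782, 1.46, 2.12 and 1.06 CPM at 20 Gy. For 20 Gy against 0 Gy it passed the expression filter through the 20 Gy libraries, since untreated ones held 4 to 6 counts. In C56BL6 mice it lay at 4.42, 23.3, 77.5 and 71.1 CPM at 0 Gy and 7.52, 22.2, 53.5 and 41.1 CPM at 20 Gy, where replicate 1 was lowest in both groups. Its log2 fold change was 3.15 ± 0.39 in *A. cahirinus* (edgeR adjusted p = 9.3e-04) and -0.46 ± 0.84 in C56BL6 mice (adjusted p = 0.72). The difference was 3.61 ± 1.19 (edgeR adjusted p = 0.048), and without replicate 2, 3 or 4 of both populations the adjusted p was 0.14, 0.19 or 0.19. In wild mice Cxcl1 lay at 10.6, 1.92, 0.499 and 5.07 CPM at 0 Gy and 20.2, 7.96, 0.570 and 16.5 CPM at 20 Gy, higher in 4 of 4 (edgeR adjusted p = 0.65, 0.02 with the block and 0.085 with the block and without replicate 1).

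Cxcl5 in C56BL6 mice at 12 d lay at 15.6, 41.2, 289.6 and 292 CPM at 0 Gy and 12.9, 16.02, 80.3 and 85.7 CPM at 20 Gy, lower in 4 of 4 animals, with replicates 1 and 2 below replicates 3 and 4 in both groups. The log2 fold change was -1.66 ± 1.01, with an edgeR adjusted p of 0.25 and of 0.0067 with the replicate block. In *A. cahirinus* it lay at 0.0338, 0.0889, 0.0687 and 0.173 CPM at 0 Gy and 0.344, 2.12, 0.777 and 0.112 CPM at 20 Gy and did not pass the expression filter for 20 Gy against 0 Gy. Its log2 fold change was 3.09 without that filter (edgeR adjusted p = 0.034) and 3.10 with all groups in one fit (adjusted p = 0.012). Leaving out replicate 4, the animal in which Cxcl5 was lower, let it pass the filter, at 3.97 (adjusted p = 0.027). Untreated libraries held 1 to 6 counts. The difference between the species in the change at 20 Gy was 4.75 ± 1.76 (edgeR adjusted p = 0.074, 0.0028 with the block). Cxcl5 entered that test through the C56BL6 libraries. In wild mice replicate 3 stayed at or below 0.732 CPM in all 7 groups, and replicate 4 lay between 35.7 and 66.9 CPM; the blocked log2 fold change at 20 Gy at 12 d was 0.68 ± 0.38, and 0.91 (adjusted p = 0.33) without replicate 1.

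At 24 h Cxcl1 and Cxcl5 were lower after 20 Gy in 4 of 4 C56BL6 animals. Cxcl1 lay at 4.80, 6.85, 22.6 and 18.1 CPM at 0 Gy and 2.89, 4.38, 14.1 and 12.1 CPM at 20 Gy. Cxcl5 lay at 10.4, 1.36, 32.3 and 16.1 CPM at 0 Gy and 6.45, 1.04, 19.8 and 10.2 CPM at 20 Gy. The blocked log2 fold changes were -0.65 ± 0.08 and -0.66 ± 0.08 (edgeR adjusted p = 1.4e-04 and 1.4e-04 with the replicate block, 0.82 and 0.89 without). In wild mice the same contrast differed from that of C56BL6 mice by 1.33 ± 0.19 for Cxcl1 and 0.94 ± 0.18 for Cxcl5 (adjusted p = 0.0095 and 0.035 with the block, 1 and 1 without).

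**Figure D4:**
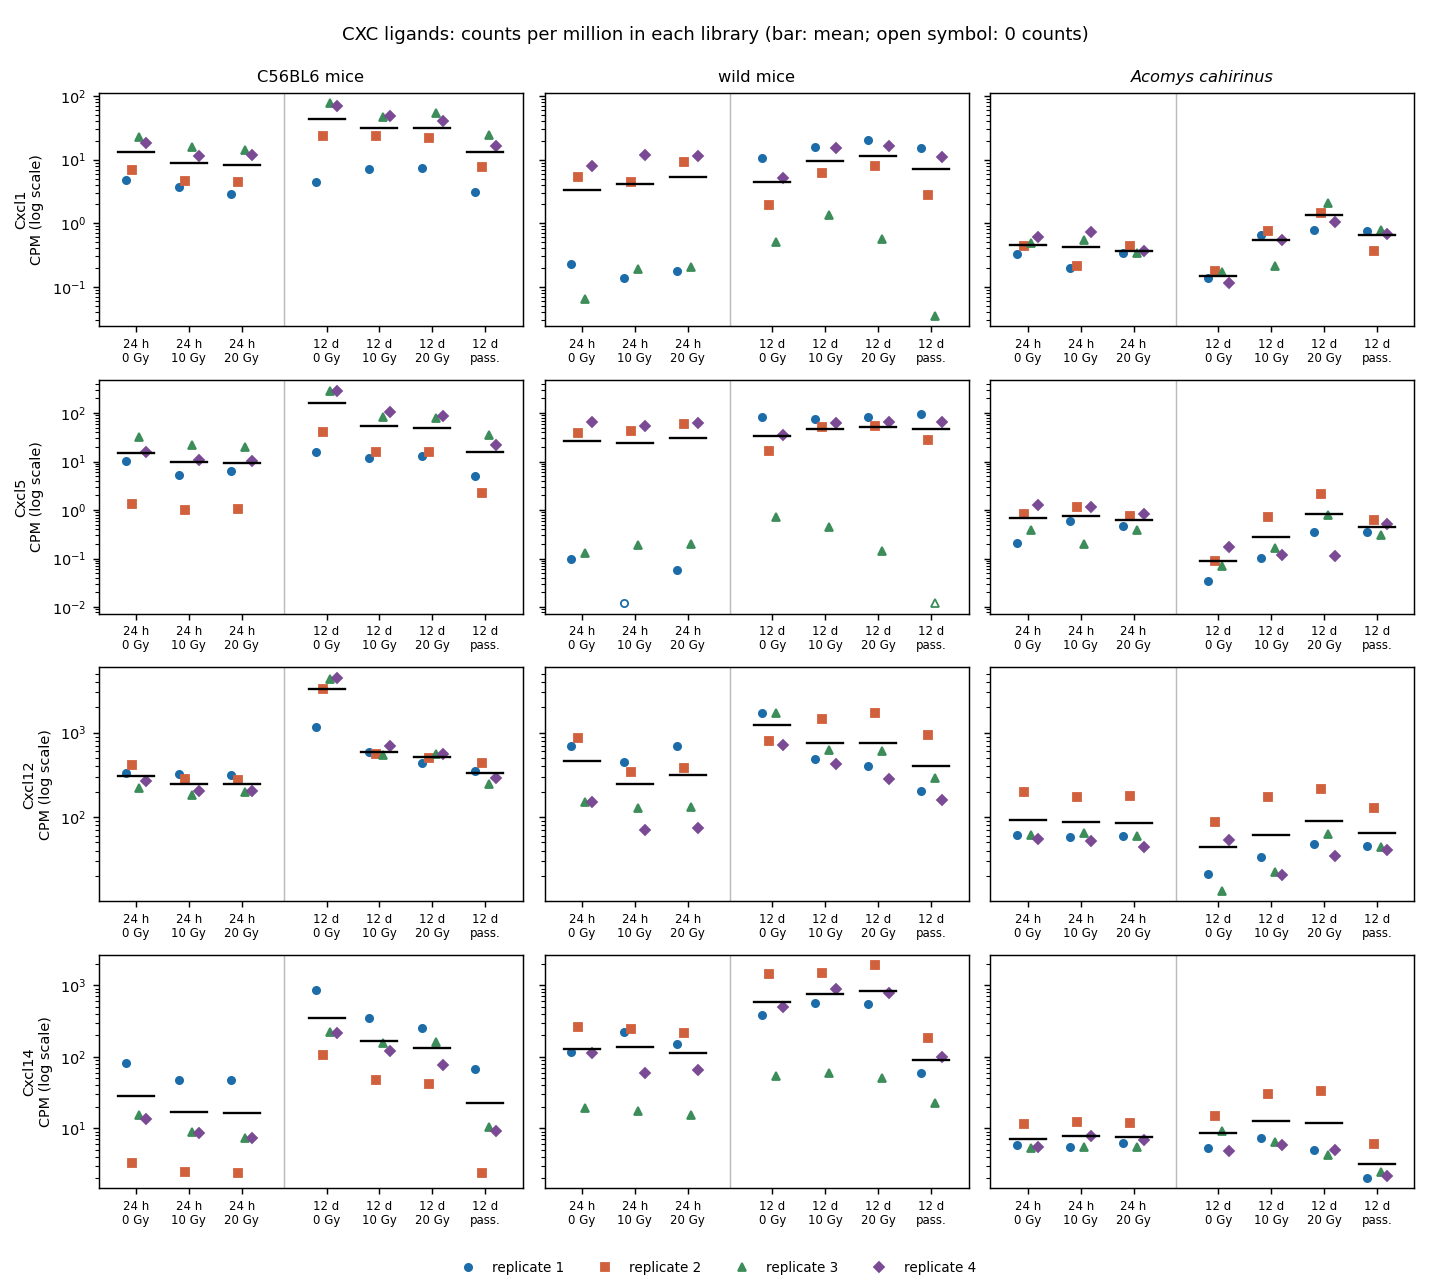
CPM on a log axis for Cxcl1, Cxcl5, Cxcl12 and Cxcl14 in each library, by population, time and dose; bars are group means, open symbols are libraries with 0 counts and shapes are replicate numbers. Cxcl12 in C56BL6 mice stands at 1159 to 4464 CPM in the untreated 12 d libraries and at 686 CPM or below in all others, and in *A. cahirinus* replicate 2 is highest for Cxcl12 in all 7 groups.

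Cxcl12, the ligand of Cxcr4 and Ackr3, was lower in irradiated and in passaged C56BL6 cells than in untreated cells at 12 d. At 12 d it lay at 1159, 3266, 4312 and 4464 CPM at 0 Gy, 588, 556, 546 and 686 CPM at 10 Gy, 432, 502, 563 and 555 CPM at 20 Gy and 353, 435, 248 and 291 CPM in passaged cells. The untreated libraries at 12 d were above all others, with replicate 1, whose libraries hold keratin mRNA, the lowest of them. Untreated cells at 24 h, of another batch, lay at 220 to 412 CPM and were not tested against those at 12 d. On the fitted scale the log2 fold change was -2.64 ± 0.39 at 20 Gy (edgeR adjusted p = 0.0033), -2.42 ± 0.39 at 10 Gy (adjusted p = 0.0058) and -3.31 ± 0.43 with passage (adjusted p = 7.4e-04). Without replicate 1 the change at 20 Gy was -2.85 (adjusted p = 2.7e-04). The summed level of 10 fibroblast markers, collagens included, was 30900 to 51500 CPM in the untreated 12 d libraries of this population and 11400 to 15400 CPM at 20 Gy, and its part in the result was not tested.

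In *A. cahirinus* Cxcl12 at 12 d lay at 20.97, 87.1, 13.4 and 53.9 CPM at 0 Gy, 48.3, 214, 62.1 and 34.1 CPM at 20 Gy and 45.7, 127, 44.4 and 40.8 CPM in passaged cells. It was higher at 20 Gy in 3 of 4 animals, and replicate 4 was lower. Its log2 fold change of 1.02 ± 0.72 did not pass the threshold (edgeR adjusted p = 0.31, 0.075 with the block). Against C56BL6 mice the change at 20 Gy differed by 3.66 ± 0.89 (edgeR adjusted p = 0.012) and the change with passage by 3.83 ± 0.81 (adjusted p = 0.0038). Without replicate 3 or 4 the first had an adjusted p of 0.098 or 0.061, and the second passed without any 1 number (0.0066 to 0.042). In wild mice Cxcl12 lay at 1713, 802, 1689 and 721 CPM at 0 Gy and 398, 1723, 614 and 282 CPM at 20 Gy, lower in 3 of 4 and higher in replicate 2 (log2 fold change -0.68 ± 0.59, edgeR adjusted p = 0.68). Blocked, it was -0.98 ± 0.50, and -0.58 (adjusted p = 0.58) without replicate 1.

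Cxcl14, a constitutive ligand of skin that keratinocytes also express, had a wide range between animals. In C56BL6 mice at 12 d it lay at 866, 107, 224 and 213 CPM at 0 Gy, 249.9, 41.7, 163 and 78.02 CPM at 20 Gy and 67.5, 2.39, 10.5 and 9.30 CPM in passaged cells. Replicate 1 was highest in all 7 groups of this population; these are the libraries with Krt5 and Krt14, whose summed keratinocyte list reached 865 CPM, and the part of those markers in the level was not tested. The log2 fold change at 20 Gy was -1.36 ± 0.75, with an edgeR adjusted p of 0.21, of 0.004 with the replicate block and of 0.0029 with the block and without replicate 1. With passage it was -3.97 ± 1.12 (adjusted p = 0.019, and 0.081 and 0.077 without replicate 3 or 4). At 24 h Cxcl14 was lower at 20 Gy in 4 of 4 C56BL6 animals, by a blocked log2 fold change of -0.84 ± 0.09 (edgeR adjusted p = 2.4e-05, 0.89 without the block). In *A. cahirinus* it lay at 5.33, 15.1, 9.06 and 4.86 CPM at 0 Gy and 4.94, 33.4, 4.31 and 5.06 CPM at 20 Gy at 12 d, where replicate 2 was higher and replicates 1 and 3 were lower. In wild mice the blocked change at 20 Gy at 12 d was 0.41 ± 0.16, and 0.36 (adjusted p = 0.39) without replicate 1. The difference between the species at 24 h was 0.97 ± 0.13 with the replicate block (edgeR adjusted p = 7.5e-05, 0.89 without).

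Cx3cl1, a membrane-bound chemokine released by Adam10 and Adam17, lay between 18.3 and 179 CPM in every mouse library and at or below 1.01 CPM in *A. cahirinus*. In C56BL6 mice at 24 h it lay at 23.2, 45.5, 32.7 and 34.8 CPM at 0 Gy and 19.7, 28.1, 25.8 and 24.3 CPM at 20 Gy, lower in 4 of 4, with a blocked log2 fold change of -0.46 ± 0.07 (edgeR adjusted p = 9.2e-04, 0.47 without the block). At 12 d its change at 20 Gy passed in none of the 3 populations, with log2 fold changes of -0.70 ± 0.47 (C56BL6 mice), -0.52 ± 0.61 (wild mice) and 0.34 ± 0.34 (*A. cahirinus*). With the block the wild value was -0.31, and -0.34 (adjusted p = 0.38) without replicate 1. In untreated *A. cahirinus* cells at 12 d it lay at 1.01, 0.860, 0.378 and 0.460 CPM, and at 24 h at 0.145 CPM or below. In passaged cells it lay at 0.153, 0.108, 0.342 and 0.210 CPM, lower than in untreated cells at 12 d (log2 fold change -1.72 ± 0.48, edgeR adjusted p = 0.031). Without replicate 1, 2 or 4 that adjusted p was 0.19, 0.074 or 0.088.

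At 24 h no member passed without the block at 20 Gy. In C56BL6 mice 0 of 7 passed (0.0895% of all genes, 1 at an unadjusted p under 0.05, 0 by DESeq2), and with the replicate block 5 of 7 (17.6%), all lower: Cxcl1, Cxcl5, Cxcl12, Cxcl14 and Cx3cl1. In wild mice 0 of 8 passed (0%, 0 unadjusted, 0 by DESeq2) and with the block 3 of 8 (12.5%), with Ccl2 and Ccl5 higher and Cxcl12 lower. In *A. cahirinus* 0 of 7 passed (3.59%, 2 unadjusted, 2 by DESeq2) and with the block 2 of 7 (24.1%), Ccl2 and Ccl7, both higher. These shares of members stand beside a background that also rises with the block. Unadjusted counts and those of DESeq2 are of fits without the block, here and below, unless said to be of the blocked fit.

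The comparisons at 10 Gy share their untreated libraries with those at 20 Gy. In C56BL6 mice at 24 h 0 of 8 passed (0.007% of all genes, 2 unadjusted, 1 by DESeq2), and 6 of 8 with the block (11.5%): Ccl5 was higher and the 5 members named for 20 Gy were lower. In wild mice 0 of 8 passed (0%, 0 unadjusted, 0 by DESeq2) and 0 of 8 with the block (0%, 3 unadjusted in the blocked fit). The wild library of replicate 1 at 10 Gy had the lowest total of the series, 17.42 M. In *A. cahirinus* 0 of 7 passed (3.73%, 2 unadjusted, 0 by DESeq2) and 2 of 7 with the block (27.6%), again Ccl2 and Ccl7. At 12 d the counts were 5 of 10 in C56BL6 mice (20.9%; 7 of 10 and 38.8% with the block), 0 of 9 in wild mice (0.264%; 3 of 9 and 12.7% with the block, 2 unadjusted, 1 by DESeq2) and 1 of 5 in *A. cahirinus* (2.87%; 2 of 5 and 27.5% with the block). The count in C56BL6 mice was 1 without replicate 3, and that in *A. cahirinus* was 0 without replicate 1, 3 or 4.

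The doses themselves were set against each other at 12 d. In C56BL6 mice 0 of 10 members passed (0% of all genes, 0 unadjusted, 0 by DESeq2) and 0 of 10 with the block (0.297%, 3 unadjusted in the blocked fit). In wild mice 0 of 10 passed (0%, 0 unadjusted, 0 by DESeq2) and 0 of 10 with the block (0.257%, 1 unadjusted in the blocked fit). In *A. cahirinus* 0 of 8 passed (0.457%, 2 unadjusted, 0 by DESeq2) and 5 of 8 with the replicate block (17.9%), all higher at 20 Gy. Ccl2 was higher by 0.61 ± 0.11 (blocked log2, edgeR adjusted p = 0.0086), Ccl7 by 0.53 ± 0.08 (adjusted p = 0.0054) and Cxcl12 by 0.77 ± 0.17 (adjusted p = 0.018), each in 4 of 4 animals. Ccl20 and Cxcl5 made up the remainder, with blocked adjusted p-values of 0.037 and 0.026.

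Passage without irradiation was set against the same untreated libraries. In C56BL6 mice 6 of 8 passed (49.6% of all genes; 7 of 8 and 60.1% with the block): Ccl2 was higher and Ccl7, Ccl8, Cxcl5, Cxcl12 and Cxcl14 were lower. Without replicate 2 Ccl7 had an adjusted p of 0.061, and Cxcl5 one of 0.08, 0.091 or 0.15 without replicate 2, 3 or 4. Ccl2 lay at 20.5, 38.96, 44.8 and 43.6 CPM in passaged cells, above every untreated library and below every irradiated one (log2 fold change 1.26 ± 0.23 against 0 Gy, edgeR adjusted p = 0.0028). In *A. cahirinus* 2 of 6 passed (25.8%), Ccl7 and Cx3cl1, both lower, and 5 of 6 with the block (49.5%). Cxcl1 and Cxcl5 did not pass the expression filter there, and without it were higher in passaged cells by 2.06 and 2.20 on the log2 scale (adjusted p = 0.0077 and 0.017). Ccl7 lay at 4.34, 6.76, 2.83 and 4.20 CPM in its passaged cells, below every untreated library (log2 fold change -1.53 ± 0.23, edgeR adjusted p = 0.0032), while Ccl2 lay at 44.1, 72.3, 32.1 and 32.8 CPM (1.04 ± 0.36, adjusted p = 0.066, 1.1e-05 with the block). In both populations Ccl2 was thus higher and its neighbour Ccl7 lower in passaged cells, Ccl2 only with the block in *A. cahirinus*. In wild mice 0 of 9 passed (10.7%, 4 unadjusted, 4 by DESeq2) and 5 of 9 with the block (31.9%): Ccl20 was higher and Ccl8, Cxcl12, Cxcl14 and Cx3cl1 were lower. Their blocked adjusted p-values without replicate 1 were 0.14, 0.064, 0.15, 0.028 and 0.12.

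Against passaged cells, 20 Gy libraries were higher for every member that passed. In C56BL6 mice 5 of 10 passed (41.6% of all genes; 8 of 10 and 56.1% with the block), in wild mice 0 of 9 (10.5%, 3 unadjusted, 2 by DESeq2; 6 of 9 and 38% with the block) and in *A. cahirinus* 3 of 8 (42.5%; 6 of 8 and 56% with the block). Cxcl12 in C56BL6 mice was lower at 20 Gy than in untreated cells and higher than in passaged cells, by 0.65 ± 0.18 on the log2 scale (edgeR adjusted p = 0.018, 0.094 and 0.11 without replicate 3 or 4). Ccl7 in *A. cahirinus* was higher by 3.06 ± 0.28 (edgeR adjusted p = 1.6e-04), and Ccl2 by 1.62 ± 0.33 (adjusted p = 0.0057, 0.054 without replicate 1).

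Whether populations differed in their response to 20 Gy was tested with interaction terms. Between *A. cahirinus* and C56BL6 mice 2 of 9 members passed at 12 d (18.8% of all genes; 5 of 9 and 38.1% with the block), Cxcl1 and Cxcl12, both with a higher change in *A. cahirinus*. At 24 h 0 of 8 passed (2.08%, 1 unadjusted, 0 by DESeq2) and 3 of 8 with the block (16.8%): Ccl2, Ccl7 and Cxcl14. For Ccl2 and Ccl7 at 12 d the difference did not pass in either fit, with the changes of both populations given above. Between *A. cahirinus* and wild mice 0 of 9 passed at 24 h (0%; 2 of 9 and 7.41% with the block, 0 unadjusted, 0 by DESeq2) and 0 of 9 at 12 d (3.23%; 1 of 9 and 23.5% with the block, 0 unadjusted, 0 by DESeq2). With the block these were Ccl2 and Ccl7 at 24 h and Cxcl1 at 12 d, and without replicate 1 none of the 3 passed (adjusted p = 0.15, 0.078 and 0.096). Between wild and C56BL6 mice 0 of 8 passed at 24 h (0%, 1 unadjusted, 0 by DESeq2) and 2 of 8 with the block (0.647%). At 12 d 0 of 10 passed (0%, 2 unadjusted, 0 by DESeq2) and 0 of 10 with the block (0.101%, 6 unadjusted in the blocked fit). For the change with passage, 3 of 9 passed between *A. cahirinus* and C56BL6 mice (27.5%; 5 of 9 and 45.2% with the block), Cxcl1, Cxcl5 and Cxcl12 (3.81, 5.50 and 3.83 on the log2 scale, where Cxcl12 alone passed without replicate 2, 3 or 4), and 0 of 9 between *A. cahirinus* and wild mice (3.49%; 1 of 9 and 23.8% with the block, 1 unadjusted, 0 by DESeq2). The last was Cxcl12, at a blocked adjusted p of 0.026 and of 0.15 without replicate 1. Cxcl1 and Cxcl5 did not pass the expression filter for passage within *A. cahirinus*, where untreated libraries held 4 to 6 and 1 to 6 counts. They entered the passage test between that species and C56BL6 mice through the C56BL6 libraries.

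Of 28 further chemokine ligands 12 were tested at 20 Gy in C56BL6 mice at 12 d, 2 rose and 1 fell, beside 26.5% of all genes called in either direction, with a median log2 fold change of -0.28 beside -0.01 for all genes. Pairs of values in parentheses below are the log2 fold change and its edgeR adjusted p, of the blocked fit where the block is named. Cxcl10, an interferon-induced T cell attractant, went from 0.353 ± 0.147 CPM (SD, n = 4) at 0 Gy to 0.975 ± 0.337 CPM (log2 fold change 1.51 ± 0.38, edgeR adjusted p = 0.022), a call lost without replicate 2, 3 or 4 (0.082, 0.14 and 0.073). Ccl25 went from 2.73 ± 0.127 to 5.41 ± 1.10 CPM (1.03 ± 0.18, adjusted p = 0.0054). Ccl9 fell from 26.1 ± 13.8 to 2.99 ± 0.864 CPM (-3.07 ± 0.44, adjusted p = 0.0029), and Cxcl15 passed only with the block (-2.91, adjusted p = 0.011). In *A. cahirinus* at 12 d 4 were tested (median 0.28, beside 0.00 for all genes) and 1 rose, beside 31.8% of all genes. It was the neutrophil attractant Cxcl2, from 0.297 ± 0.192 to 0.853 ± 0.271 CPM (1.50 ± 0.45, adjusted p = 0.036). In wild mice 10 were tested and 0 passed without the block, beside 0.0694% of all genes. With the block 1 passed, beside 15.4% of all genes. It was Ccl9, which was lower (-1.08, adjusted p = 0.027, and without replicate 1 -1.39, adjusted p = 0.041). At 24 h the platelet ligand Ppbp was higher with the block in C56BL6 mice (0.79, adjusted p = 0.016) and in wild mice (1.69, 0.0058), and in *A. cahirinus* Cxcl2 was lower (-0.97, 0.025) and Cxcl16 higher (0.42, 0.045).

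Of 18 chemokine receptors that signal, 2 passed the expression filter in each population at 12 d. Cxcr6 rose in C56BL6 mice from 0.171 ± 0.133 to 3.15 ± 3.07 CPM (log2 fold change 4.22 ± 0.82, edgeR adjusted p = 0.0087, 0.058 without replicate 3) and was higher in wild mice at 24 h with the block (1.09, adjusted p = 0.0019). Cxcr4, through which Cxcl12 signals, fell in *A. cahirinus* from 4.23 ± 1.98 to 1.70 ± 0.171 CPM (-1.31 ± 0.39, adjusted p = 0.033) and stayed below 1 CPM in every mouse library. Ackr3, which takes up Cxcl12 without signalling through G proteins, stood at 119.5 ± 56.9 CPM in untreated C56BL6 cells at 12 d and between 31.9 and 146 CPM in every *A. cahirinus* library. With the block it was lower at 24 h in C56BL6 mice (-0.47, adjusted p = 4.2e-04) and higher in *A. cahirinus* at both times (0.37 and 0.56, adjusted p = 0.0058 and 0.0024). Ackr4, a scavenger of Ccl19 and Ccl21, rose in *A. cahirinus* at 12 d (2.16 ± 0.54, adjusted p = 0.017) and passed with the block in C56BL6 mice (1.21, 0.018). Of 3 chemokine-cleaving proteases, the Cx3cl1 sheddases Adam10 and Adam17 were tested at 20 Gy in all 3 populations. At 12 d Adam10 and Adam17 rose in *A. cahirinus* (0.44 ± 0.14 and 0.46 ± 0.12, adjusted p = 0.046 and 0.019) and were lower with the block in C56BL6 mice (-0.35 and -0.34, 0.019 and 0.0032). Adam17 was also lower at 24 h with the block in C56BL6 mice (-0.19, 0.012) and wild mice (-0.25, 0.043). In *A. cahirinus* the unblocked calls of Cxcl2, Cxcr4, Ackr4, Adam10 and Adam17 were each lost without replicate 1 (0.12, 0.14, 0.11, 0.18 and 0.13) and without replicate 3 (0.2, 0.16, 0.11, 0.11 and 0.14). With the block and without replicate 1, Ackr4 and Adam17 passed (edgeR adjusted p = 0.024 and 0.013). Cxcl2, Cxcr4 and Adam10 did not (0.091, 0.063 and 0.073).

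How members varied together is given as Pearson correlations of log2 CPM over the libraries of a population and time, which share animals and doses. At 12 d, over 16 libraries each, r between Ccl2 and Ccl7 was 0.75 (C56BL6 mice), 0.76 (wild mice) and 0.64 (*A. cahirinus*). Cxcl1 and Cxcl5 had r of 0.88, 0.94 and 0.67 in the same order; the untreated *A. cahirinus* libraries behind the last value held 4 to 6 counts of Cxcl1 and 1 to 6 of Cxcl5. At 24 h, over 12 libraries each, r was 0.83, 0.93 and 0.97 for Ccl2 and Ccl7 and 0.71, 0.98 and 0.11 for Cxcl1 and Cxcl5. Pairs on different chromosomes reached values as high. At 12 d Ccl2 and Ccl20 had r of 0.95 in C56BL6 mice and 0.77 in *A. cahirinus* but 0.11 in wild mice, and Ccl7 and Cxcl1 had 0.98 in wild mice, 0.67 in C56BL6 mice and 0.26 in *A. cahirinus*. For 3 members the 3 genes of most similar pattern were taken over 28 libraries of a population after subtracting the mean of each time. Ccl2 was most like Maff, Klra2 and Hmox1 in C56BL6 mice (r = 0.94, 0.93 and 0.93), Prl2c3, Coch and Olr1 in wild mice (0.90, 0.89 and 0.87) and Hsd17b7, Stom and Ripk4 in *A. cahirinus* (0.94, 0.93 and 0.93). Cxcl12 was most like Ssbp2 in C56BL6 mice (r = 0.95, followed by Elp3 at 0.95 and Pdp1 at 0.94) and in wild mice (0.87, followed by Rasl12 at 0.84 and Creg1 at 0.81), and like Gulp1, Ripk2 and Stat6 in *A. cahirinus* (0.95, 0.94 and 0.94). Cxcl5 was most like Xylt1, Lgi2 and Abi3bp in C56BL6 mice (0.93, 0.91 and 0.91) and Hoxc10, Sdc1 and Ly6a in wild mice (each 0.98), where the differences between animals are largest. In *A. cahirinus*, at a mean of 0.53 CPM, it was most like Anapc16, Hoxc5 and Akr1b8 (0.82, 0.82 and 0.81).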

How the data were processed

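RNA-seq counts of polyA RNA were analysed from 84 libraries of cultured skin fibroblasts. Per the submitters' processing notes, Trim Galore, HISAT2, featureCounts and GRCm39 were used; per the file headers, the deposited counts came from featureCounts 2.0.3, for mouse by Ensembl gene identifier and for *A. cahirinus* by gene name on the AcoCah2 assembly, with no strand, multimapping or overlap option. Any reads shared by related genes (such as Cxcl1 with Cxcl2 and Cxcl3, or Ccl2 with Ccl12) are thus uncertain. Each file was one count table, and 0 count columns were unused. Of 56980 mouse identifiers, 56236 were matched to a symbol.

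For each of 31 comparisons only the groups compared entered the fit: filterByExpr, TMM and the quasi-likelihood test of edgeR 4.0.16 in R 4.3.3, with Benjamini-Hochberg adjustment over all genes and a threshold of 0.05. Tests between the species used 18109 symbols found once in each table. CPM used TMM within a population; TPM used the lengths in the tables. Libraries with the same number come from one animal code within a population, and deviated together (mean r of 0.54 to 0.77 against -0.28 to -0.18 for different numbers), so a fit with the replicate block was made too. Labels do not say whether cultures were separate beyond the animal. Alternatives were DESeq2 1.42.0, other size factors, no expression filter, all groups in one fit and leaving out each number. The tests were checked on simulated counts without differences between animals, with changes only in well-counted genes. That check does not cover the spread between animals or members with few counts. Members and gene lists were chosen with earlier results of these data known. Other-list genes are named where they passed, with or without the block, at 20 Gy against 0 Gy. Likeness was ranked among genes above 5 CPM on average, by Pearson correlation. Outliers were sought where the group mean was at least 1 CPM.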

Additional observations from a re-analysis of the deposited data

Results flagged for a closer look

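In each group of 4 libraries the highest or lowest library was compared with the others by Dixon's test where the mean was at least 1 CPM. Of 141 groups, 24 held a library past the 95% critical value, where chance gives about 1 in 20. In C56BL6 mice Cxcl14 was far above the other animals in replicate 1, at 82.1, 46.7 and 47.8 CPM at 0, 10 and 20 Gy at 24 h, at 866 CPM at 0 Gy at 12 d and at 67.5 CPM in passaged cells; these libraries also hold Krt5 and Krt14. Ccl20 in the same animal was low at 20 Gy at 12 d, at 0.423 CPM.

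In *A. cahirinus* replicate 2 stood apart. Its Cxcl12 was 197, 172 and 178 CPM at 0, 10 and 20 Gy at 24 h and 171, 214 and 127 CPM at 10 Gy, at 20 Gy and in passaged cells at 12 d. Its Cxcl14 was 11.5 CPM at 0 Gy at 24 h and 30.4, 33.4 and 6.15 CPM at 10 Gy, at 20 Gy and in passaged cells at 12 d, and its Ccl7 was 9.48 CPM at 0 Gy at 24 h.

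In wild mice Cx3cl1 was high in replicate 2, at 41.1 CPM at 0 Gy at 24 h and at 179, 88.9 and 95.3 CPM at 0, 10 and 20 Gy at 12 d, as was Cxcl12 in passaged cells of that animal at 944 CPM. Ccl2 in replicate 4 was 193 CPM at 10 Gy at 24 h, and Ccl20 in replicate 3 was 2.99 CPM at 10 Gy at 12 d.

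The change at 20 Gy at 12 d differed between *A. cahirinus* and C56BL6 mice by 3.61 on the log2 scale for Cxcl1 and by 3.66 for Cxcl12. The change with passage differed by 3.81 for Cxcl1, 5.50 for Cxcl5 and 3.83 for Cxcl12. These differences were tested as interactions with edgeR (adjusted p = 0.048, 0.012, 0.035, 0.042 and 0.0038, 4 libraries a group). For passage, Cxcl1 and Cxcl5 did not pass the expression filter within *A. cahirinus* and entered the test through the C56BL6 libraries.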

How the results depend on the processing

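Of the 31 counts of members past the threshold, other size factors moved 1, no expression filter 3, all groups in one fit 4 and DESeq2 9 by over 1.5 times; the replicate block moved 21 of 29. Pairing through the block left the 20 Gy counts at 12 d within 1.5 times in C56BL6 mice and *A. cahirinus*. Counts for a comparison follow as the unblocked value and then the alternatives. At 24 h, 20 Gy against 0 Gy gave 0 in each population, and with the block 5 in C56BL6 mice (6 without replicate 1), 3 in wild mice (4 without replicate 1) and 2 in *A. cahirinus* (2 without replicate 1, 2 with DESeq2). At 10 Gy C56BL6 mice went from 0 to 6 with the block, 6 with it and without replicate 1, and 1 with DESeq2, with no expression filter and with all groups in one fit. Wild mice had 2 with the block and without replicate 1, and *A. cahirinus* 2 with the block and 2 without replicate 1 as well. At 12 d the block without replicate 1 gave 7 at 20 Gy and 8 at 10 Gy in C56BL6 mice, against 4 and 5. In wild mice 0 became 3 with the block, 1 with it and without replicate 1 and 1 with DESeq2 at 20 Gy, and 3, 2 and 1 at 10 Gy. In *A. cahirinus* at 10 Gy 1 became 2 with other size factors, DESeq2 or the block, and 3 with all groups in one fit or with the block and without replicate 1. Its 20 Gy against 10 Gy went from 0 to 5 with the block and 3 without replicate 1. Passaged against 0 Gy went from 2 to 4 with no expression filter and with DESeq2, and to 5 with the block and 4 without replicate 1, in *A. cahirinus*, and from 0 to 4 with DESeq2, 5 with the block, 1 without replicate 1 and 1 with all groups in one fit in wild mice. For 20 Gy against passaged the block, with or without replicate 1, gave 8 in C56BL6 mice against 5, 6 in wild mice against 0 (2 with DESeq2, 1 with all groups in one fit) and 6 in *A. cahirinus* against 3.

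For differences in the 20 Gy change, *A. cahirinus* against C56BL6 mice went from 0 to 3 with the block at 24 h, with or without replicate 1, and at 12 d from 2 to 1 with no expression filter, 5 with the block and 4 without replicate 1. Against wild mice the block gave 2 at 24 h (1 without replicate 1) and 1 at 12 d, against 0. Wild against C56BL6 mice gave 2 with the block at 24 h, with or without replicate 1. For the passage change *A. cahirinus* against C56BL6 mice went from 3 to 5 with the block and 6 without replicate 1, and against wild mice from 0 to 1 with the block. DESeq2 gave 1 for untreated wild against C56BL6 mice at 12 d. The block without replicate 1 was chosen after seeing the data.

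Leaving out 1 number at a time gave 0 to 1 for C56BL6 mice at 10 Gy at 24 h and 1 to 5 at 12 d. The range was 0 to 1 for wild passaged cells (1 without replicate 2 or 3) and 0 to 2 for wild 20 Gy against passaged cells (2 without replicate 3). In *A. cahirinus* it was 0 to 2 at 20 Gy and at 10 Gy at 24 h, 0 to 2 at 10 Gy at 12 d, 0 to 3 for 20 Gy against 10 Gy and 1 to 4 with passage. Between *A. cahirinus* and C56BL6 mice it was 0 to 1 at 24 h, 0 to 2 at 12 d and 1 to 3 for passage. It was 0 to 1 for passage against wild mice and for untreated wild against C56BL6 mice at 12 d (1 without replicate 2). The values that rise from 0 in *A. cahirinus* are those without replicate 2, and the 1 at 10 Gy at 24 h in C56BL6 mice is that without replicate 1.

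Among the fold changes reported, a sign turned for Ccl8 at 20 Gy at 12 d in C56BL6 mice, with a main value of 0.02: -0.01 with the block, -0.01 with all groups in one fit and -0.14 to 0.18 without 1 number. Without 1 number Ccl20 in *A. cahirinus* at 20 Gy at 24 h ranged from -0.19 to 0.41, Cxcl5 there from -0.35 to 0.22 and Cxcl14 at 12 d from -0.41 to 0.80. None of these passed the threshold. The causes were not tested. Fold changes covered are those of members past the threshold in either fit, of all members tested at 20 Gy against 0 Gy, and of the other genes named. By CPM without length, Cxcl12 ranked first among members in the untreated cells of all populations at both times. Members below about 0.1 CPM rest on a few counts, and 4 libraries a group limit the precision.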

Other observations

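Ccl5 and Cxcl10, ligands that interferon responses raise, were higher at 10 than at 20 Gy in C56BL6 mice at 24 h, a pair picked after their values were seen. Cxcl10 stood at 0.499 ± 0.0653 CPM (SD, n = 4) at 0 Gy, 1.96 ± 0.386 CPM at 10 Gy and 0.810 ± 0.196 CPM at 20 Gy, and Ccl5 at 0.151 ± 0.0542, 1.15 ± 0.371 and 0.483 ± 0.143 CPM. In wild mice at 24 h Cxcl10 stood at 0.473 ± 0.354, 0.445 ± 0.197 and 0.570 ± 0.711 CPM, and Ccl5 at 0.614 ± 0.556, 1.79 ± 2.24 and 1.28 ± 1.20 CPM. The doses were not tested against each other at this time.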
